A study of Saccharomyces cerevisiae with 18 samples.

Results

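Ribosome biogenesis factors are proteins that cut, modify and fold ribosomal RNA and join it with ribosomal proteins, and that leave before the ribosome translates. The 54 yeast genes described here encode nucleolar assembly factors and were chosen by their systematic names, 54 of the 5746 genes in the deposited count table. They were read in poly(A)-selected RNA of 6 budding yeast strains, with 3 independently grown cultures of each strain and 18 libraries in all. Rad6 is the ubiquitin-conjugating enzyme that, with the ubiquitin ligase Bre1, attaches ubiquitin to histone H2B, and the study asked how changes in a β-turn on the back of Rad6 affect gene expression.

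All strains are of mating type a, with the auxotrophic markers ura3-52, leu2, his3 and trp1Δ, and all carry a centromeric TRP1 plasmid. The rad6Δ strain has the chromosomal rad6Δ::KanMX deletion and the empty vector pRS314. The bre1Δ strain has the bre1Δ::KanMX deletion and that vector as well, and its RAD6 is the native, untagged gene on the chromosome. The P43L, P47T and E49K strains have the rad6Δ::KanMX deletion and a plasmid with V5-tagged Rad6 in which 1 amino acid is replaced. The strain called WT here has the same deletion and the plasmid with unchanged tagged Rad6. Rad6 therefore came from a plasmid and was tagged in WT and in the 3 point mutants but not in bre1Δ. Cultures were grown at 30 °C in synthetic medium without tryptophan, which selects for the plasmid. The growth protocol gives an optical density of 0.8 to 1.0 and the extraction protocol one of 0.7 at harvest, and which of them applied to these libraries is not given in the sources used here.

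In yeast, RNA polymerase I makes a long precursor of ribosomal RNA in the nucleolus. A first large particle, the 90S pre-ribosome or small subunit processome, forms on it and yields the precursor of the small 40S subunit, while early, middle and late particles in turn yield the large 60S subunit. Small nucleolar ribonucleoproteins (snoRNPs) with box C/D RNAs guide ribose methylation, and those with H/ACA RNAs guide the change of uridine to pseudouridine. Growing cells make the messages of these factors together, and many of their promoters share short sequences known as PAC (polymerase A and C box) and RRPE (ribosomal RNA processing element).

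The libraries held 5065845 to 11396251 counts on genes. RAD6 was at 3.75 to 4.77 CPM (counts scaled to a common library size) in rad6Δ, against 143 to 157 CPM in WT, and BRE1 was at 1.25 to 2.12 CPM in bre1Δ, against 136 to 147 CPM in WT. All 54 genes passed the filter on low counts. Per kilobase of coding sequence, WT levels ran from 9.70 CPM for NOP8 and 9.79 CPM for DBP7 to 253 CPM for RLP24 and 430 CPM for NOP56. On the second principal component of all genes, which held 16% of the variance, bre1Δ replicate 3 (-11.0, against 3.3 and -0.6 in its other replicates), P43L replicate 2 (7.9, against 1.2 and 2.0) and P47T replicate 3 (-3.4, against -12.0 and -9.7) stood apart from their strains. Of the 50-base windows of the 54 coding sequences, the length of a read, those found elsewhere in the genome were all in SSF1, with 53 of 1313 (4.04%), and how reads matching several places were counted is not given in the sources used here.

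The promoters of these genes are shown because all 54 hold a PAC or an RRPE core, which the choice of genes did not use, against 28.7% of all promoters. The window of 300 bases ran from 250 bases before the start codon to the first 50 bases of the coding sequence, in the R64 genome, the build that the submitters' processing notes name. The PAC core GATGAG was in 53 of the 54 windows (98.1%), against 1112 of 5602 windows of all genes (19.9%), counting both strands. The RRPE core AAAAATTT was in 49 of 54 (90.7%), against 833 of 5602 (14.9%). Both cores were in 48 of 54 (88.9%), against 337 of 5602 (6.02%). The longer forms were in fewer windows, with GCGATGAG in 35 of 54 (64.8%), against 4.19% of all genes, and the RRPE core preceded by TG in 28 of 54 (51.9%), against 4.18%. SPB1 had no PAC core in its window, and RRP9, NOP9, DBP6, MAK5 and DBP10 had no RRPE core. The 6 windows below belong to the genes with the highest mean log2 fold change over rad6Δ and bre1Δ against WT, and are printed 5′ to 3′ along the gene's strand, with PAC and RRPE cores in capitals on either strand.
PWP1 (chrXII:543718-544017, plus strand): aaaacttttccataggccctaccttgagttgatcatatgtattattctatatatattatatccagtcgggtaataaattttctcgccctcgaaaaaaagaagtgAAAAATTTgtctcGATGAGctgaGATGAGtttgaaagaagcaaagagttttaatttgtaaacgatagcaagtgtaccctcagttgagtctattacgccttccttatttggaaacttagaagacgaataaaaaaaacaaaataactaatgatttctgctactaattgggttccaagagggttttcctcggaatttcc
DBP10 (chrIV:393967-394266, plus strand): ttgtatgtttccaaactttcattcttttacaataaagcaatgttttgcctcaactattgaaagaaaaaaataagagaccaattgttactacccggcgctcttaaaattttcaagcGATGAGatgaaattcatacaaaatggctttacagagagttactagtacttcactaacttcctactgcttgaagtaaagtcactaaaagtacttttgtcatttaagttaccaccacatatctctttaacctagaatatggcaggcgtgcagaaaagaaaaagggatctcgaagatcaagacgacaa
NOP12 (chrXV:252597-252896, minus strand): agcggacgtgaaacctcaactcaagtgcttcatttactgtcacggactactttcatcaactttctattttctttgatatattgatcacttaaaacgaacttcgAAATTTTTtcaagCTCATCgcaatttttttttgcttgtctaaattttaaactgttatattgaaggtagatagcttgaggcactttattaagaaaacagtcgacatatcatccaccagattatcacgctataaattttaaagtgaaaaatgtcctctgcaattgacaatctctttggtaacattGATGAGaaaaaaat
NIP7 (chrXVI:153245-153544, plus strand): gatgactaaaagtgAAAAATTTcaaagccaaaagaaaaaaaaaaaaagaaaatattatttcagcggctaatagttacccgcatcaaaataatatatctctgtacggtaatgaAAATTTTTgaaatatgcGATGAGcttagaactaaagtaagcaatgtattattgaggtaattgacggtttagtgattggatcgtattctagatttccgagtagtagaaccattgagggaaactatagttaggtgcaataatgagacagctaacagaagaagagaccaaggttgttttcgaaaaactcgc
NOP4 (chrXVI:469689-469988, plus strand): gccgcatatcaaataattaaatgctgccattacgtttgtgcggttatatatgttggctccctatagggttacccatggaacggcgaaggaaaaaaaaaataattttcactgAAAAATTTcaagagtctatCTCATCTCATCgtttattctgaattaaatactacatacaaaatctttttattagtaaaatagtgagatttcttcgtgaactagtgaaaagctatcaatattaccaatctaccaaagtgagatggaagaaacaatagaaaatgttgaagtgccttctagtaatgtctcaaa
RRP5 (chrXIII:731074-731373, minus strand): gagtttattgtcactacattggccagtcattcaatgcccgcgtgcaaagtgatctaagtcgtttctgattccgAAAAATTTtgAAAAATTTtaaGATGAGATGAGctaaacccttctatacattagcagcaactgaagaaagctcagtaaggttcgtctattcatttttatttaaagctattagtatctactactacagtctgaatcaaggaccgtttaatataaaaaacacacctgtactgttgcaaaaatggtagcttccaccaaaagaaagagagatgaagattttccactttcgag

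In PWP1, NOP12, NIP7, NOP4 and RRP5 an RRPE core lies a short way before a PAC core, and DBP10 holds a PAC core alone. Over all 54 genes the matches stood at a median of 121 bases before the start codon for PAC and 148 bases for RRPE. In 42 of the 48 genes with both cores, the nearest pair had RRPE farther from the start codon than PAC, and the median distance within the nearest pair was 17 bases. A match says only that the letters are in the window.

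**Figure D1:**
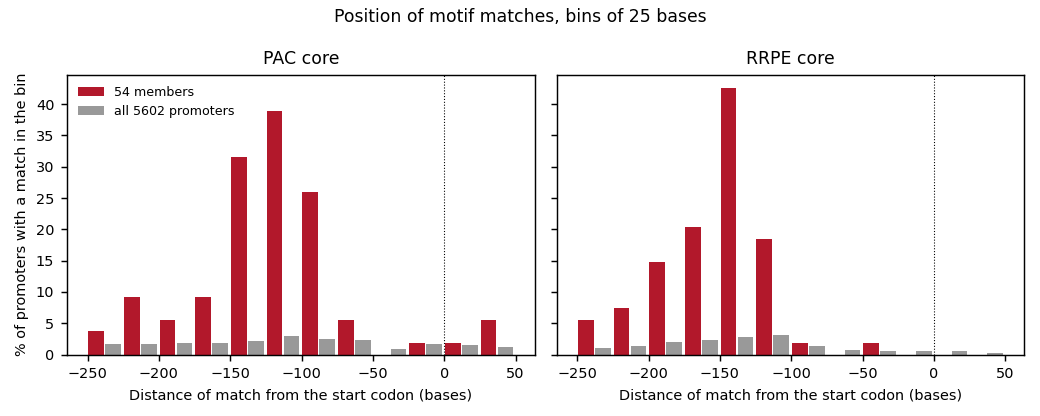
Position of PAC core (left) and RRPE core (right) matches relative to the start codon. Bars give the percentage of promoters with a match in each bin of 25 bases, for the 54 ribosome biogenesis genes in red and all 5602 promoters in grey. Of the 54, 38.9% held a PAC core 125 to 101 bases before the start codon and 42.6% an RRPE core 150 to 126 bases before it, against 2.91% and 2.86% of all promoters.

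Together the 54 genes took 1.25 to 1.40% of the counts on nuclear protein-coding genes in rad6Δ, 1.23 to 1.46% in bre1Δ, 0.837 to 0.895% in P43L, 0.964 to 1.02% in P47T, 0.965 to 1.06% in E49K and 0.941 to 1.02% in WT. Every rad6Δ and bre1Δ library lay above the WT libraries and every P43L library below them, while P47T and E49K overlapped WT. The genes of the ribosomal proteins themselves followed another order, with 14.7 to 15.8% in rad6Δ, 16.6 to 18.3% in bre1Δ, 14.3 to 16.03% in P43L, 18.7 to 19.8% in P47T, 16.1 to 16.8% in E49K and 15.6 to 16.1% in WT. Such shares compare libraries by their make-up, so that less RNA per cell of all kinds would not show in them.

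**Figure D2:**
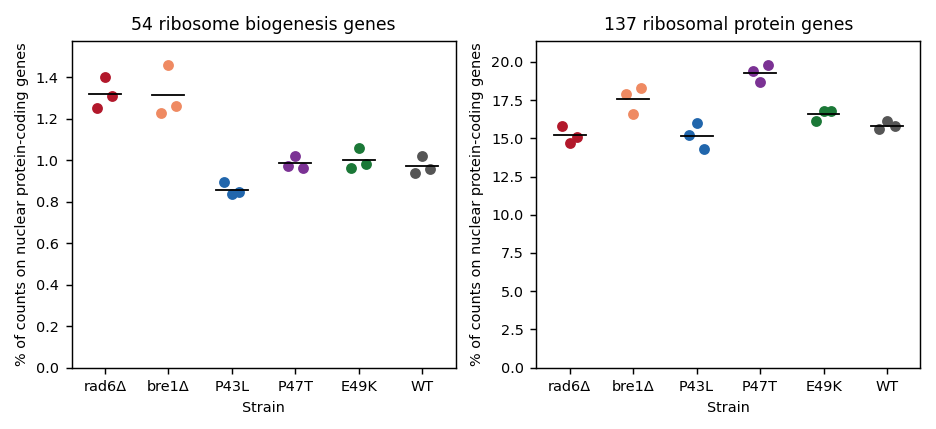
Share of counts on nuclear protein-coding genes, in percent, taken by the 54 ribosome biogenesis genes (left) and by 137 ribosomal protein genes (right). Each point is a library and each line the mean of 3. The biogenesis share was highest in rad6Δ and bre1Δ and lowest in P43L, and the ribosomal protein share was highest in P47T.

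Against WT, most of these factors had higher messages in both deletion strains, some were lower and 1 was higher in P43L, and some were higher and 1 was lower in P47T and in E49K. In rad6Δ, 38 of the 54 rose and 0 fell, where 24.8% of the 5630 genes tested rose and 24.8% fell (edgeR quasi-likelihood test, adjusted p below 0.05). In bre1Δ, 47 rose and 0 fell, where 22.3% of all genes rose and 22.1% fell. In P43L, 1 rose and 12 fell, where 5.95% of all genes rose and 6.18% fell. In P47T, 17 rose and 1 fell, where 14.2% of all genes rose and 13.7% fell. In E49K, 14 rose and 1 fell, where 15.2% of all genes rose and 16.1% fell. The 5 comparisons share the WT libraries and are given side by side.

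The changes were modest. The median log2 fold change of the 54 genes was 0.39 in rad6Δ (range -0.16 to 0.89), 0.52 in bre1Δ (0.09 to 0.98), -0.20 in P43L (-0.59 to 0.36), 0.17 in P47T (-0.34 to 0.83) and 0.14 in E49K (-0.26 to 0.77), while the median of all genes tested lay within 0.017 of 0 in each. These medians amount to 1.31-fold in rad6Δ and 1.44-fold in bre1Δ, and 0 of the 54 reached a doubling in any comparison with WT. Set against the mean of WT, the median gene stood at 0.32, 0.51 and 0.35 in the rad6Δ libraries, at 0.37, 0.64 and 0.57 in bre1Δ, at -0.13, -0.24 and -0.22 in P43L, at 0.18, 0.19 and 0.12 in P47T, at 0.06, 0.29 and 0.11 in E49K and at -0.03, 0.05 and -0.02 in WT, on the log2 scale.

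The counts in the point mutants depended on single libraries, and those over all genes moved as well. In P43L, 6 of the 54 passed without WT replicate 2, where 97 of all genes rose and 96 fell, and 6 passed without P43L replicate 3, where 126 rose and 96 fell. In the same strain 8 passed without WT replicate 3, where 138 of all genes rose and 139 fell, and 8 without P43L replicate 1, where 108 rose and 105 fell. The fit to all libraries called 335 genes higher and 348 lower in P43L. Without P43L replicate 2 the counts grew, to 2 of the 54 up and 15 down, where 604 of all genes rose and 505 fell. In P47T, 11 passed without P47T replicate 1, where 507 of all genes rose and 452 fell, against 799 and 770 with all libraries. With P47T replicate 3 left out, 19 rose and 0 fell, where 820 of all genes rose and 775 fell. In E49K, 8 passed without E49K replicate 2, where 569 of all genes rose and 615 fell, against 857 and 908. Without the 3 libraries that stood apart, 40 rose and 0 fell in rad6Δ, 45 and 0 in bre1Δ, 2 and 15 in P43L, 20 and 1 in P47T, and 18 and 1 in E49K. Of all 5650 genes tested in that fit, 1502 rose and 1534 fell in rad6Δ, 1109 and 1151 in bre1Δ, 810 and 663 in P43L, 999 and 895 in P47T, and 1050 and 1052 in E49K. When counts were scaled by library totals alone, the median of all genes moved to -0.11 in bre1Δ and -0.13 in P47T, 37 of the 54 rose and 0 fell in bre1Δ, and 10 rose and 2 fell in P47T. Under that scaling 733 of all 5630 genes rose and 1699 fell in bre1Δ, 407 rose and 1297 fell in P47T, 176 rose and 353 fell in P43L, and 538 rose and 952 fell in E49K.

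**Figure D3:**
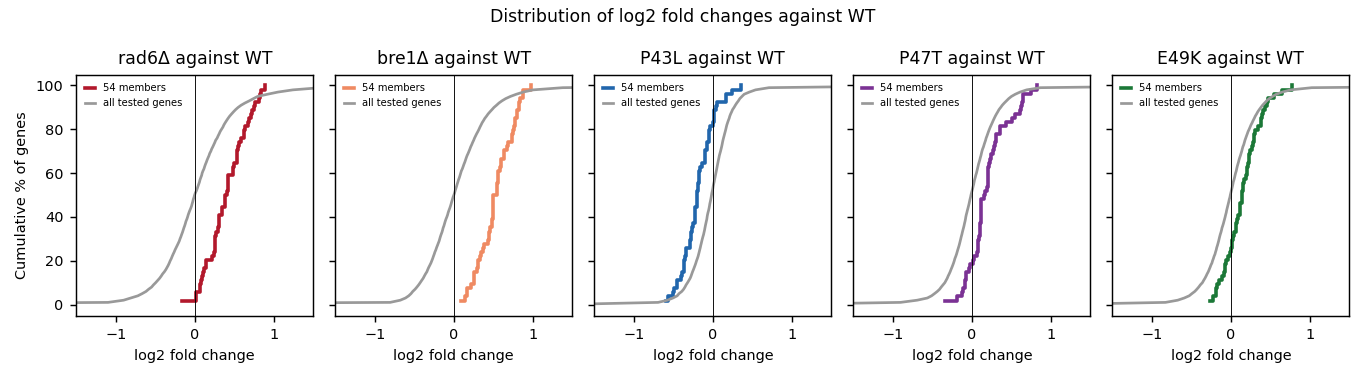
Cumulative share of genes, in percent, by log2 fold change against WT, for the 54 ribosome biogenesis genes (coloured) and all 5630 tested genes (grey), 1 panel per mutant strain. At its median the coloured curve lies right of the grey one in rad6Δ, bre1Δ, P47T and E49K, with medians of 0.39, 0.52, 0.17 and 0.14. It lies left of the grey one in P43L, with a median of -0.20. The curves cross in the tails, where the largest changes were those of other genes.

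**Figure D4:**
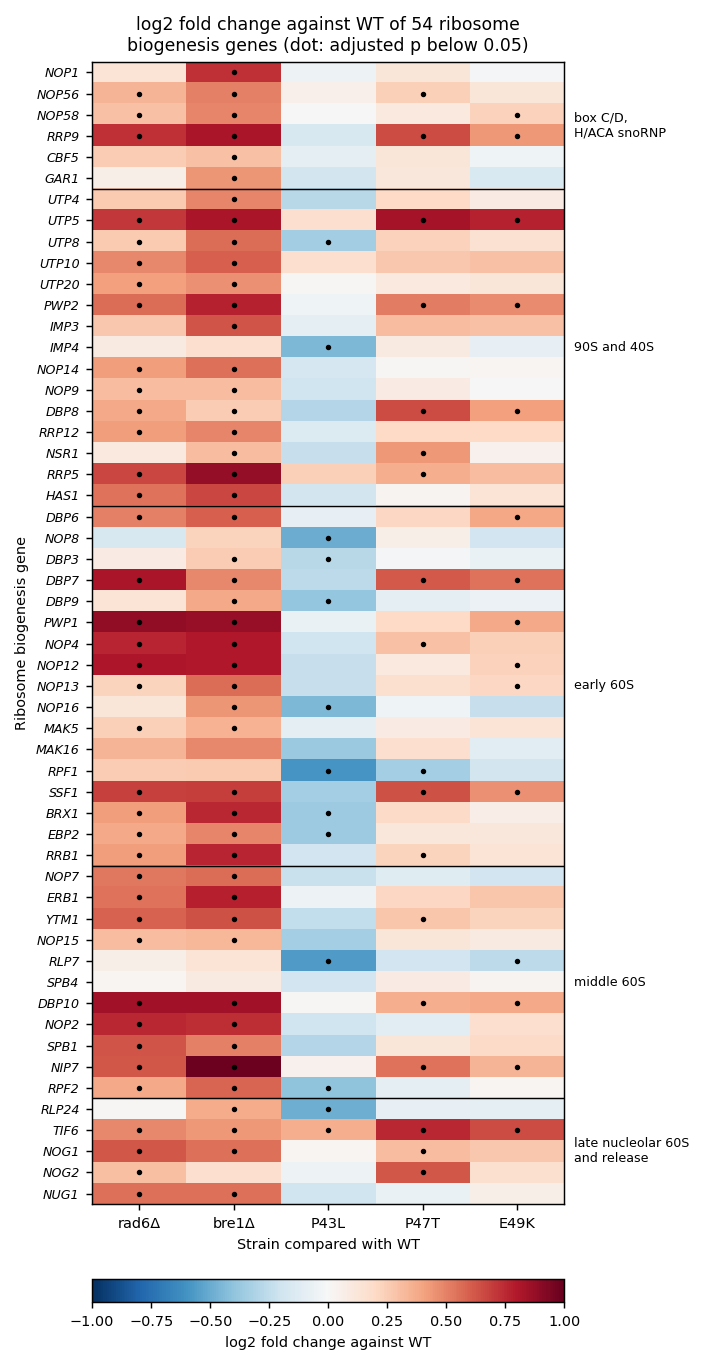
Log2 fold change against WT of each of the 54 genes (rows, grouped by role) in the 5 mutant strains (columns), from blue (lower than WT) to red (higher than WT). A dot marks an adjusted p below 0.05, with 38 dots in the rad6Δ column, 47 for bre1Δ, 13 for P43L, 18 for P47T and 15 for E49K.

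The snoRNP proteins rose in bre1Δ in 6 of 6 cases and in rad6Δ in 3 of 6, with medians of 0.49 and 0.27. NOP1 (YDL014W), the methyltransferase of box C/D snoRNPs and the yeast fibrillarin, had 208, 230 and 188 CPM in rad6Δ, 243, 346 and 358 CPM in bre1Δ, and 205, 162 and 203 CPM in WT. The bre1Δ libraries were all above those of WT, and replicate 1 was the lowest of them, while rad6Δ overlapped WT. Its log2 fold change was 0.73 in bre1Δ (SE 0.12, adjusted p = 8.64e-05) and 0.14 in rad6Δ (SE 0.12, adjusted p = 0.371). NOP56 (YLR197W), a core protein of the same particles and the most abundant of the 54 per kilobase, had 811, 821 and 838 CPM in rad6Δ, 886, 963 and 905 CPM in bre1Δ, and 633, 735 and 585 CPM in WT, a log2 fold change of 0.34 in rad6Δ (SE 0.08, adjusted p = 0.00208) and 0.50 in bre1Δ (SE 0.08, adjusted p = 8.54e-05). Its partner NOP58 changed by 0.29 in rad6Δ (adjusted p = 0.00785, a call lost without rad6Δ replicate 2) and 0.49 in bre1Δ (adjusted p = 0.000118).

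RRP9 (YPR137W), a protein of the U3 snoRNP that acts in the 90S particle, was higher than WT in 4 of the 5 mutants. It had 54.3, 63.9 and 50.9 CPM in rad6Δ, 53.9, 61.0 and 67.5 CPM in bre1Δ, 28.8, 31.7 and 31.4 CPM in P43L, 54.1, 58.8 and 47.4 CPM in P47T, 45.6, 48.9 and 43.6 CPM in E49K, and 35.4, 30.3 and 37.5 CPM in WT. All libraries but those of P43L were above the highest WT library. Its log2 fold change was 0.73 in rad6Δ, 0.82 in bre1Δ, 0.65 in P47T and 0.43 in E49K (SE 0.11 in each, largest adjusted p = 0.00511). The H/ACA proteins moved less than RRP9 in rad6Δ. CBF5 (YLR175W), the pseudouridine synthase, had 257, 246 and 233 CPM in rad6Δ, 207, 282 and 271 CPM in bre1Δ, and 204, 234 and 181 CPM in WT, so that 1 bre1Δ library lay among those of WT. It changed by 0.25 in rad6Δ (adjusted p = 0.0622) and by 0.29 in bre1Δ (adjusted p = 0.0328), a call lost without either bre1Δ replicate 2 or 3 or WT replicate 1 or 3. GAR1, which binds CBF5, changed by 0.44 in bre1Δ (SE 0.10, adjusted p = 0.00103) and by 0.06 in rad6Δ (adjusted p = 0.616). In P43L 0 of the 6 passed the test, in P47T 2 rose (RRP9 and NOP56) and in E49K 2 rose (RRP9 and NOP58). NOP56 in P47T and NOP58 in E49K, with log2 fold changes of 0.24 and 0.23, lost their call when replicate 1 or 3 of WT was left out, among other settings.

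Of the 15 factors of the 90S particle and the 40S subunit, 11 rose in rad6Δ and 14 in bre1Δ, with medians of 0.41 and 0.55. UTP5 (YDR398W), part of the complex that binds the start of the ribosomal RNA precursor, had 38.0, 35.5 and 36.1 CPM in rad6Δ, 33.9, 41.7 and 42.5 CPM in bre1Δ, 27.1, 24.7 and 23.2 CPM in P43L, 38.3, 43.5 and 36.5 CPM in P47T, 36.5, 39.7 and 37.3 CPM in E49K, and 22.5, 23.3 and 20.5 CPM in WT. It was as high in P47T and E49K as in the deletions, and in those 4 strains each library was above every WT library. Its log2 fold change was 0.71 in rad6Δ, 0.82 in bre1Δ, 0.83 in P47T and 0.77 in E49K (SE 0.10 in each, largest adjusted p = 1.37e-05), against 0.17 in P43L (adjusted p = 0.281). PWP2, of the second complex to join, rose by 0.56, 0.77, 0.51 and 0.47 in the same 4 strains (SE 0.11 in each, largest adjusted p = 0.0035).

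RRP5 (YMR229C), a long RNA-binding protein needed for both subunits, had 784, 790 and 714 CPM in rad6Δ, 702, 975 and 968 CPM in bre1Δ, 632, 464 and 594 CPM in P43L, 673, 650 and 516 CPM in P47T, 536, 617 and 620 CPM in E49K, and 466, 488 and 479 CPM in WT. In rad6Δ, bre1Δ, P47T and E49K all libraries were above those of WT. RRP5 did not pass the test in E49K, where it passed only with the 2 strains alone and without the 3 libraries apart. The log2 fold change was 0.67 in rad6Δ (SE 0.13, adjusted p = 0.00017), 0.88 in bre1Δ (SE 0.13, adjusted p = 1.57e-05) and 0.36 in P47T (SE 0.13, adjusted p = 0.0384, a call lost without any 1 of the WT libraries, without P47T replicate 1 or 2 and with library totals alone). UTP10, of the same complex as UTP5, rose by 0.48 in rad6Δ (adjusted p = 0.0028) and 0.60 in bre1Δ (adjusted p = 0.000604), and the DEAD-box helicase HAS1 by 0.54 (adjusted p = 1.12e-05) and 0.67 (adjusted p = 1.72e-06).

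NSR1 (YGR159C), a nucleolin-like protein that binds ribosomal RNA, and DBP8, a helicase, were highest in P47T. NSR1 had 245, 270 and 228 CPM in rad6Δ, 238, 299 and 322 CPM in bre1Δ, 328, 312 and 292 CPM in P47T, 222, 282 and 209 CPM in E49K, and 228, 229 and 235 CPM in WT. Each P47T library was above every library of rad6Δ, E49K and WT. NSR1 changed by 0.43 in P47T (SE 0.11, adjusted p = 0.00644), by 0.31 in bre1Δ (SE 0.11, adjusted p = 0.0252, lost without any 1 of the WT libraries or without bre1Δ replicate 2 or 3) and by 0.10 in rad6Δ (adjusted p = 0.447). DBP8 (YHR169W) had 37.9, 39.1 and 35.8 CPM in P47T and 23.7, 25.3 and 23.0 CPM in WT, a log2 fold change of 0.65 (SE 0.10, adjusted p = 8.08e-05). In bre1Δ it had 29.0, 28.1 and 29.0 CPM, 0.25 on the log2 scale, with an adjusted p of 0.0445 that was lost when any 1 library of bre1Δ or WT was left out. IMP4, which helps pair the U3 RNA with the precursor, had 42.3, 40.2 and 37.8 CPM in P43L and 49.9, 55.7 and 59.7 CPM in WT, and was 1 of 2 genes of this role to fall there, with UTP8.

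Of the 17 factors of the early 60S particle, 11 rose in rad6Δ and 14 in bre1Δ, while 7 fell in P43L. PWP1 (YLR196W), a protein of early large subunit particles, had 164, 172 and 166 CPM in rad6Δ, 137, 174 and 186 CPM in bre1Δ, 92.9, 85.1 and 80.5 CPM in P43L, 106, 108 and 97.8 CPM in P47T, 109, 132 and 110 CPM in E49K, and 88.0, 95.5 and 87.4 CPM in WT. The rad6Δ and bre1Δ libraries were above all others, and P43L overlapped WT. The log2 fold change was 0.89 in rad6Δ (SE 0.10, adjusted p = 1.96e-07), 0.87 in bre1Δ (SE 0.10, adjusted p = 7.27e-07) and 0.38 in E49K (SE 0.10, adjusted p = 0.00596, lost without E49K replicate 2). NOP12 (YOL041C), an RNA-binding protein of the large subunit pathway, had 168, 178 and 180 CPM in rad6Δ, 171, 176 and 173 CPM in bre1Δ, 84.3, 91.6 and 78.7 CPM in P43L, 98.1, 109 and 113 CPM in P47T, 111, 129 and 112 CPM in E49K, and 90.6, 106 and 103 CPM in WT. Its deletion libraries lay far above the rest and close together, with log2 fold changes of 0.81 in rad6Δ (SE 0.08, adjusted p = 4.42e-08) and 0.80 in bre1Δ (SE 0.08, adjusted p = 1.75e-07).

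The helicase DBP7 had 34.0, 42.8 and 39.6 CPM in rad6Δ, 26.0, 34.0 and 32.0 CPM in bre1Δ, 19.0, 18.8 and 17.2 CPM in P43L, 35.0, 33.1 and 32.5 CPM in P47T, 28.9, 34.7 and 32.0 CPM in E49K, and 20.5, 25.6 and 19.4 CPM in WT. In 4 strains each library exceeded every WT library, and in P43L each was below them. It rose by 0.82 in rad6Δ (SE 0.12, adjusted p = 6.01e-06), 0.48 in bre1Δ (SE 0.12, adjusted p = 0.00318), 0.61 in P47T (SE 0.12, adjusted p = 0.000782) and 0.54 in E49K (SE 0.12, adjusted p = 0.00184). SSF1, an RNA-binding factor with a near copy elsewhere in the genome, had 48.1, 51.4 and 42.3 CPM in P47T, 24.4, 22.8 and 24.6 CPM in P43L and 27.5, 36.4 and 26.9 CPM in WT, and reads shared with that copy make its values uncertain. RRB1 (YMR131C), which binds a new large subunit protein before it is built in, had 231, 241 and 244 CPM in rad6Δ, 296, 313 and 298 CPM in bre1Δ, and 177, 185 and 173 CPM in WT. The bre1Δ libraries were above those of rad6Δ, and both were above WT, with log2 fold changes of 0.42 in rad6Δ (SE 0.08, adjusted p = 0.00023) and 0.76 in bre1Δ (SE 0.08, adjusted p = 4.13e-07). In P47T it was the called gene nearest the threshold, at 0.22 (adjusted p = 0.048, lost when any 1 WT library or the first or second P47T library was left out and with library totals alone), and BRX1, at 0.19 (adjusted p = 0.0716), the nearest not called. MAK5, a helicase, stood just inside the threshold in rad6Δ, at 0.24 (adjusted p = 0.0417), and lost that call when any 1 WT library, or rad6Δ replicate 2 or 3, was left out. MAK16 was just outside it in bre1Δ, at 0.48 (SE 0.20, adjusted p = 0.0569), with the widest error of the 54.

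RPF1 (YHR088W), which acts on the large subunit precursor, was lowest in P43L. It had 42.9, 51.9 and 46.6 CPM in rad6Δ, 47.3, 55.2 and 38.9 CPM in bre1Δ, 30.1, 24.4 and 24.7 CPM in P43L, 29.0, 35.2 and 30.1 CPM in P47T, 36.7, 35.9 and 32.7 CPM in E49K, and 37.6, 43.5 and 38.0 CPM in WT. The libraries of all 3 point mutants were below every WT library, though RPF1 did not pass the test in E49K. It fell by 0.59 on the log2 scale in P43L (SE 0.12, adjusted p = 0.00491) and by 0.34 in P47T (SE 0.12, adjusted p = 0.0365, lost without WT replicate 2 or 3 or P47T replicate 1 or 3). NOP8 had 10.3, 9.47 and 9.83 CPM in P43L, against 13.4, 13.7 and 15.3 CPM in WT, and was the lowest gene per kilobase. It changed by -0.50 in P43L (SE 0.14, adjusted p = 0.0268, lost without WT replicate 2 or 3 or P43L replicate 1 or 3). NOP16 in P43L, at -0.45 (adjusted p = 0.0346, lost with the replicate block, without any 1 WT library and without P43L replicate 1 or 3), was the called gene nearest the threshold and NOP13, at -0.23 (adjusted p = 0.0573), the nearest that was not called.

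Of the 11 factors of the middle 60S particle, 9 rose in rad6Δ and 9 in bre1Δ, with medians of 0.54 and 0.58. NOP2 (YNL061W), which methylates the large ribosomal RNA, had 358, 387 and 407 CPM in rad6Δ, 364, 404 and 376 CPM in bre1Δ, 209, 190 and 196 CPM in P43L, 209, 210 and 217 CPM in P47T, 253, 287 and 230 CPM in E49K, and 218, 245 and 224 CPM in WT. Every rad6Δ and bre1Δ library exceeded every library of the other strains, while the P43L and P47T libraries were below every WT library, with adjusted p of 0.0977 and 0.327. The log2 fold change was 0.75 in rad6Δ (SE 0.08, adjusted p = 2.19e-07) and 0.74 in bre1Δ (SE 0.08, adjusted p = 7.27e-07). The helicase DBP10 changed by 0.84 in both deletions (SE 0.10, adjusted p = 3.96e-07 in rad6Δ and 1.01e-06 in bre1Δ), with 159, 186 and 180 CPM in rad6Δ, 152, 184 and 191 CPM in bre1Δ, and 94.7, 99.5 and 99.2 CPM in WT.

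NIP7 (YPL211W), an RNA-binding factor of the middle particles, had 96.9, 85.3 and 72.6 CPM in rad6Δ, 88.6, 108 and 131 CPM in bre1Δ, 63.3, 54.9 and 51.9 CPM in P43L, 81.8, 84.2 and 74.7 CPM in P47T, 63.2, 75.4 and 71.5 CPM in E49K, and 52.4, 56.6 and 57.1 CPM in WT. Its libraries were spread widely in bre1Δ, and all of them were above WT. It had the largest change of the 54 in bre1Δ, 0.98 (SE 0.12, adjusted p = 3.43e-06), with 0.62 in rad6Δ (SE 0.12, adjusted p = 0.000257), 0.54 in P47T (SE 0.12, adjusted p = 0.00276) and 0.34 in E49K (SE 0.12, adjusted p = 0.0362). NOP7 and ERB1, 2 proteins of the complex that matures the large ribosomal RNA, rose by 0.53 (adjusted p = 0.000267) and 0.54 (adjusted p = 0.00611) in rad6Δ and by 0.56 (adjusted p = 0.000262) and 0.78 (adjusted p = 0.00048) in bre1Δ. SPB1, a methyltransferase and the gene without a PAC core in its window, rose by 0.63 in rad6Δ (SE 0.10, adjusted p = 4.58e-05) and 0.50 in bre1Δ (SE 0.11, adjusted p = 0.000687).

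RLP7 (YNL002C), a factor of the large subunit precursor that resembles a ribosomal protein, did not pass the test in either deletion. It had 130, 142 and 135 CPM in rad6Δ, 138, 157 and 136 CPM in bre1Δ, 88.4, 98.7 and 77.7 CPM in P43L, 103, 117 and 125 CPM in P47T, 104, 116 and 107 CPM in E49K, and 115, 149 and 128 CPM in WT. The P43L libraries were below all others, while E49K overlapped WT by 1 library. It fell by 0.57 on the log2 scale in P43L (SE 0.10, adjusted p = 0.00187) and by 0.26 in E49K (SE 0.10, adjusted p = 0.0485), where DESeq2, limma and the fits without WT replicate 2 or 3 or any 1 E49K library did not call it.

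Of the 5 late factors, 4 rose in rad6Δ and 4 in bre1Δ. TIF6 (YPR016C), the yeast counterpart of eIF6 that keeps a new large subunit from joining a small one too soon, was the 1 gene of the 54 that rose in all 5 mutants. It had 216, 205 and 197 CPM in rad6Δ, 175, 186 and 239 CPM in bre1Δ, 203, 186 and 183 CPM in P43L, 259, 243 and 244 CPM in P47T, 203, 255 and 238 CPM in E49K, and 157, 138 and 149 CPM in WT. No mutant library overlapped WT. It rose by 0.48 in rad6Δ (adjusted p = 0.000453), 0.43 in bre1Δ (adjusted p = 0.00158), 0.36 in P43L (adjusted p = 0.0222), 0.75 in P47T (adjusted p = 3.3e-05) and 0.65 in E49K (adjusted p = 8.27e-05), with an SE of 0.10 in each. The call in P43L was lost without WT replicate 2 or 3 or P43L replicate 1.

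RLP24 (YLR009W), which holds the place of a ribosomal protein and came second in level per kilobase, had 137, 161 and 159 CPM in rad6Δ, 197, 205 and 184 CPM in bre1Δ, 114, 116 and 93.7 CPM in P43L, and 138, 170 and 147 CPM in WT. It was above WT in bre1Δ, below it in P43L and overlapped it in rad6Δ, and in P43L it fell by 0.49 on the log2 scale (SE 0.10, adjusted p = 0.00541). The GTPases of the late particles, NOG1, NOG2 and NUG1, rose in rad6Δ by 0.62 (adjusted p = 4.94e-05), 0.30 (adjusted p = 0.00912) and 0.55 (adjusted p = 8.54e-05). In bre1Δ NOG1 and NUG1 rose by 0.55 each (adjusted p = 0.000284 and 0.000129). NOG1 stood nearest the threshold among the genes not called in E49K, at 0.27 (adjusted p = 0.0501), and passed there with DESeq2 and with RLE factors, among other settings. NOG2 (YNR053C) had 81.4, 87.7 and 78.2 CPM in rad6Δ, 66.1, 78.4 and 83.1 CPM in bre1Δ, 65.9, 60.1 and 68.0 CPM in P43L, 101, 109 and 99.4 CPM in P47T, 70.4, 85.6 and 69.6 CPM in E49K, and 67.1, 68.7 and 65.7 CPM in WT. Each P47T library was above all libraries of the other strains, at 0.62 against WT (SE 0.09, adjusted p = 6.28e-05). The intron of NOG2, on chromosome XIV, holds the small nucleolar RNA SNR191 on the same strand. SNR191 changed by 1.16 in P47T (SE 0.27, adjusted p = 0.00727) and by 1.02 in P43L (SE 0.27, adjusted p = 0.0297), where NOG2 had -0.05. SNR191 also changed by 0.98 in E49K (adjusted p = 0.0152), 0.69 in rad6Δ (adjusted p = 0.0491) and 0.64 in bre1Δ (adjusted p = 0.0728). Its part in the NOG2 values was not tested.

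**Figure D5:**
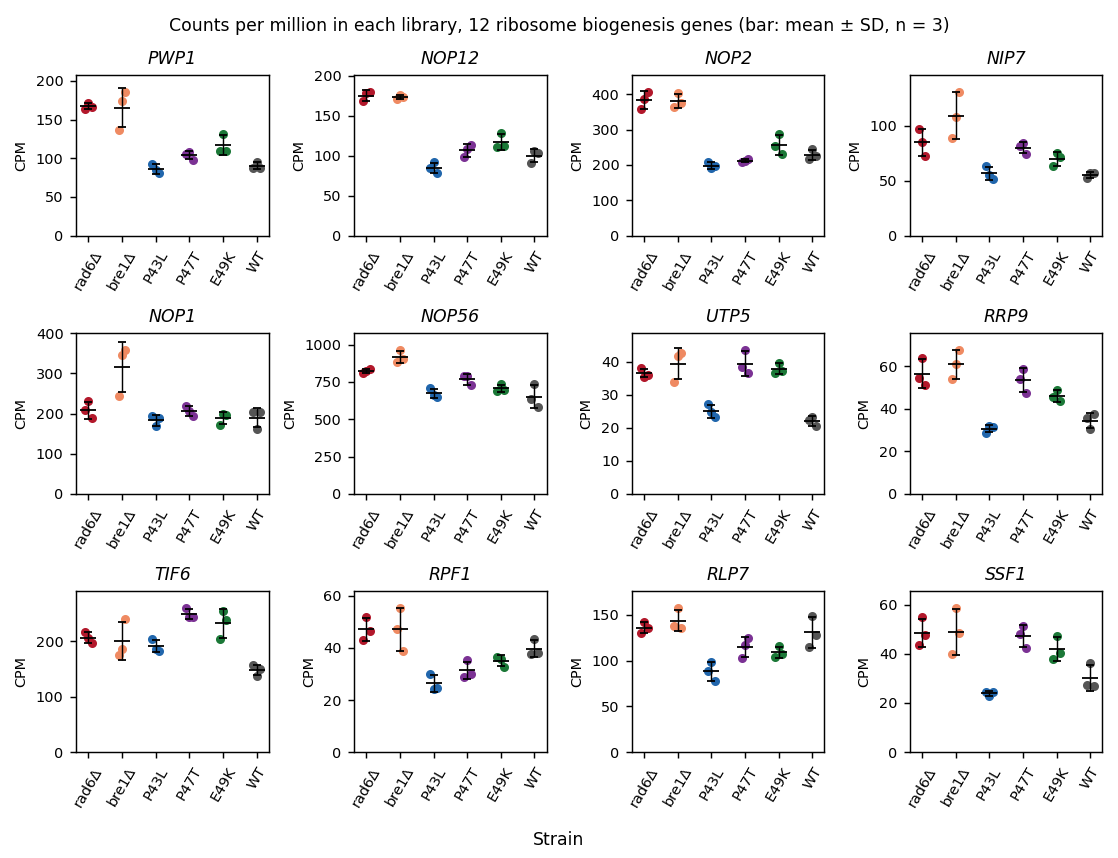
CPM in each library for 12 of the 54 genes, by strain. Points are libraries and bars the mean ± SD of 3. PWP1, NOP12 and NOP2 were highest in rad6Δ and bre1Δ, UTP5 and RRP9 were also high in P47T and E49K, NOP1 was high in bre1Δ, TIF6 was above WT in all 5 mutants, and RPF1 and RLP7 were lowest in P43L.

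By mean CPM, bre1Δ was the highest strain for 43 of the 54 genes, rad6Δ for 6 and P47T for 5, which were UTP5, DBP8, NSR1, TIF6 and NOG2. P43L was the lowest strain for 44 genes and WT for 10, among them NOP56, UTP5, RRP5, NIP7 and TIF6. Mean ranks over the 54 genes, from 1 for the highest strain to 6, were 2.13 for rad6Δ, 1.33 for bre1Δ, 5.81 for P43L, 3.24 for P47T, 3.76 for E49K and 4.72 for WT. Neighbours in this order did not always differ gene by gene, as the tests between mutants show. The order of the deletions also depended on the scaling. With TMM factors 9 of the 54 genes had a positive log2 fold change in rad6Δ against bre1Δ, and with library totals alone 24 did. The mean share of counts on nuclear protein-coding genes taken by the 54 was 1.32% in both deletions.

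Between the deletions, 1 gene was higher in rad6Δ than in bre1Δ and 9 were lower, where 8.92% of all genes were higher and 11.9% lower. NOP1 differed most, by -0.60 in rad6Δ against bre1Δ (SE 0.12, adjusted p = 0.00152). GAR1 differed by -0.38 (adjusted p = 0.00759, lost without bre1Δ replicate 2) and NOP8 by -0.38 with an adjusted p that rounds to 0.05. The NOP8 call was lost with library totals alone, with no filter, with the 2 strains alone, with DESeq2, without rad6Δ replicate 1 or 3 or bre1Δ replicate 2 or 3, and without the 3 libraries apart. The others were BRX1, NOP13, RRB1, RLP24, NIP7 and UTP8, at -0.30 to -0.36. DBP7 was the 1 higher in rad6Δ, by 0.34 (SE 0.11, adjusted p = 0.036), and this call was lost without rad6Δ replicate 2 or 3 or bre1Δ replicate 1 or 3. Without rad6Δ replicate 3 or without bre1Δ replicate 2, 6 genes passed. Those fits called 335 of all genes higher and 448 lower in rad6Δ, and 409 and 595. With library totals alone 1 was higher and 4 lower, with a median of -0.02 in place of -0.11, where 770 of all genes were higher and 356 lower in rad6Δ, against 502 and 668 with TMM factors.

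The point mutants stood below rad6Δ to different degrees. In P43L 0 genes were higher and 51 lower than in rad6Δ, where 23.9% of all genes were higher and 25.2% lower. The exceptions were NOP1, NOP8 and TIF6. The largest differences were those of DBP7 (-1.09, SE 0.12, adjusted p = 1.8e-07), NOP12 (-1.05, SE 0.08, adjusted p = 9.57e-10) and SSF1 (-1.02, SE 0.14, adjusted p = 3.93e-06), and the median over the 54 was -0.58. In P47T 4 were higher and 22 lower than in rad6Δ, where 25.9% of all genes were higher and 26.4% lower. NOP2 (-0.86, adjusted p = 2.38e-08), NOP12 (-0.72, adjusted p = 2.01e-07) and PWP1 (-0.69, adjusted p = 4.14e-06) were lowest. NOG2 (0.33, adjusted p = 0.00359), NSR1 (0.32, adjusted p = 0.0158), TIF6 (0.27, adjusted p = 0.0225) and DBP8 were higher, and NSR1 and TIF6 lost this without P47T replicate 1 or rad6Δ replicate 3. With library totals alone 1 was higher and 29 lower, and without rad6Δ replicate 2 the split was 4 and 12. Over all genes, library totals alone gave 1056 higher and 1816 lower, and leaving out rad6Δ replicate 2 gave 1367 and 1248. The fit to all libraries with TMM factors gave 1459 and 1484. In E49K 0 were higher and 26 lower than in rad6Δ, where 18.4% of all genes were higher and 18.5% lower. NOP7 (-0.73, adjusted p = 1.62e-05), NOP2 (-0.58, adjusted p = 1.04e-05) and NOP12 (-0.58, adjusted p = 6.41e-06) were lowest there, and 14 genes passed without rad6Δ replicate 2 and 16 without E49K replicate 1. Those fits called 920 of all genes higher and 751 lower, and 887 and 829, against 1034 and 1042 with all libraries.

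Among the point mutants, P43L had lower levels of many of these messages than P47T or E49K. In P43L 0 were higher and 39 lower than in P47T, where 14.7% of all genes were higher and 16.3% lower, and the median difference was -0.37. Against E49K, 32 of the 54 passed in P43L and all 32 were lower, where 25.4% of all genes passed in either direction, and the median difference was -0.33. Without E49K replicate 2, 20 passed in the second comparison. That fit called 480 of all genes higher and 453 lower in P43L, against 698 and 732 with all libraries. The same 3 genes differed most in both, SSF1 by -0.98 (adjusted p = 4.59e-05) against P47T and -0.81 (adjusted p = 0.000286) against E49K, DBP8 by -0.94 (adjusted p = 1.23e-06) and -0.70 (adjusted p = 2.67e-05), and DBP7 by -0.88 (adjusted p = 2.65e-05) and -0.80 (adjusted p = 5.98e-05). These comparisons share the P43L libraries. Between P47T and E49K, 2 genes were higher and 1 lower in P47T, where 9.41% of all genes were higher and 8.35% lower. NOG2 was higher by 0.46 (SE 0.09, adjusted p = 0.00113) and NSR1 by 0.39 (SE 0.11, adjusted p = 0.0171), and NOP2 was lower, by -0.28 (SE 0.08, adjusted p = 0.0225). The calls of NSR1 and NOP2 were lost without P47T replicate 1 or E49K replicate 1, each of which left 1 gene. Those fits called 351 of all genes higher and 312 lower in P47T, and 279 and 288, against 530 and 470 with all libraries.

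Among these genes are 2 pairs of neighbours. On chromosome XII, PWP1 (543968 to 545698) stands before NOP56 (546097 to 547611) in the same direction, and PWP1 changed by 0.89 in rad6Δ where NOP56 changed by 0.34. On chromosome VIII, RPF1 (281495 to 282382) and GAR1 (282681 to 283298) face each other, and in bre1Δ RPF1 changed by 0.26 (adjusted p = 0.0721) and GAR1 by 0.44.

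Other genes of the pathway also rose more often than they fell in both deletions. Of all genes tested, 24.8% rose and 24.8% fell in rad6Δ, and 22.3% rose and 22.1% fell in bre1Δ. The shares up and down were 5.95% and 6.18% in P43L, 14.2% and 13.7% in P47T, and 15.2% and 16.1% in E49K. Of 59 other 90S and 40S factors, 40 rose and 3 fell in rad6Δ and 41 rose and 0 fell in bre1Δ, with UTP18 at 1.24 (SE 0.13, adjusted p = 1.49e-07) in rad6Δ and 1.30 (SE 0.13, adjusted p = 2.48e-07) in bre1Δ. Of 49 other 60S factors tested, 29 rose and 1 fell in rad6Δ and 36 rose and 0 fell in bre1Δ. In P43L 0 of the 59 rose and 10 fell, and 0 of the 49 rose and 15 fell. In P47T the splits were 21 and 2 of the 59 (13 and 2 with library totals alone), and 12 and 1 of the 49 (8 and 2 with library totals alone), and in E49K 15 and 1, and 7 and 2 (3 and 2 with library totals alone). Of 18 genes of RNA polymerase I and its factors, 10 rose and 3 fell in rad6Δ, and 9 rose and 2 fell in bre1Δ (7 and 3 with library totals alone). The polymerase subunit RPA49 rose by 0.57 (SE 0.07, adjusted p = 2.56e-06) in rad6Δ, where HMO1, a protein that binds ribosomal DNA, fell by 0.63. Of 22 exosome and RNA-processing nuclease genes, 12 rose and 1 fell in rad6Δ, and 11 rose and 1 fell in bre1Δ (7 and 2 with library totals alone).

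Genes of ribosomal proteins did not follow the assembly factors in rad6Δ. The shares of all genes given above for each strain stand beside the counts here too. Of 137, 4 rose and 35 fell in rad6Δ, 77 rose and 1 fell in bre1Δ, 3 rose and 16 fell in P43L, 99 rose and 0 fell in P47T, and 34 rose and 5 fell in E49K. The share of the 137 that fell in rad6Δ was near the 24.8% of all genes, and the share that rose was below the 24.8% there. Their median log2 fold change was -0.08 in rad6Δ and 0.27 in bre1Δ. In rad6Δ 96 were lower and 0 higher than in bre1Δ, where 11.9% of all genes were lower and 8.92% higher. With library totals alone 73 were lower and 0 higher, where 356 of all genes were lower and 770 higher. Under that scaling 46 rose and 2 fell in bre1Δ, with a median of 0.15, and 79 rose and 1 fell in P47T. In rad6Δ 7 rose and 38 fell under it, and in P43L 7 rose and 22 fell. Many are near-identical pairs, so single values are uncertain. Genes of the stress response and of storage carbohydrate, 30 in the list, had medians of the opposite sign to those of the assembly factors. In rad6Δ 1 rose and 25 fell, in bre1Δ 0 rose and 26 fell, in P43L 5 rose and 0 fell (1 and 0 with library totals alone), in P47T 0 rose and 16 fell, and in E49K 1 rose and 18 fell. CTT1, the cytosolic catalase, fell by 1.44 in rad6Δ and by 1.28 in bre1Δ on the log2 scale.

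Of 16 regulators of this pathway, 5 rose and 5 fell in rad6Δ (3 and 5 with library totals alone) and 3 rose and 6 fell in bre1Δ. Of all genes tested, 24.8% rose and 24.8% fell in rad6Δ, and 22.3% rose and 22.1% fell in bre1Δ. IFH1, a coactivator of ribosomal protein genes, rose by 1.20 in rad6Δ (SE 0.08, adjusted p = 9.36e-11), by 0.76 in bre1Δ (SE 0.08, adjusted p = 3.2e-07) and by 0.55 in E49K (SE 0.08, adjusted p = 4.76e-05). ABF1, a general regulatory factor, fell by 1.11 in rad6Δ (SE 0.08, adjusted p = 1.87e-10) and by 0.67 in bre1Δ (SE 0.07, adjusted p = 7.21e-07). SFP1, an activator of ribosome genes, fell by 0.27 in rad6Δ (adjusted p = 0.0421) and by 0.29 in bre1Δ (adjusted p = 0.0341). DOT6 and TOD6, the repressors that bind PAC, had log2 fold changes of -0.12 (adjusted p = 0.245) and -0.08 (adjusted p = 0.708) in rad6Δ and 0.08 (adjusted p = 0.464) and 0.03 (adjusted p = 0.887) in bre1Δ. STB3, which binds RRPE, rose by 0.30 in rad6Δ (adjusted p = 0.0397) and had -0.04 in bre1Δ (adjusted p = 0.827). The calls of SFP1 and STB3 lie near the threshold and were not followed gene by gene under the alternatives.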

How the data were processed

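Poly(A) RNA of 18 libraries was sequenced as single 50-base reads after a stranded kit, per the labels' protocols. The authors deposited whole-number counts per gene and a second table of regularized log2 values from DESeq2. The submitters' processing notes name cutadapt 1.16, STAR 2.6.1b, featureCounts 1.6.3, DESeq2 1.20 and the sacCer3 (R64) build. Whether strand was used in counting, and how reads matching several places were handled, is not given in the sources used here. The count table held 5746 genes, and 3 emptied lines were not analysed.

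Counts of 5630 genes passing edgeR's filterByExpr (minimum count 10) were fitted with edgeR 4.0.16 (R 4.3.3) by the robust quasi-likelihood method, with TMM factors and 1 coefficient per strain over all 18 libraries (12 residual degrees of freedom). P-values were two-sided and adjusted by Benjamini-Hochberg over all genes of a comparison, with a threshold of 0.05, and each of the 12 comparisons was adjusted separately. "Rose", "fell", "higher" and "lower" of a gene in a count mean past that threshold. CPM values use library sizes times TMM factors. Standard errors are on the log2 scale. The fit was tested on simulated counts. Replicates of a strain differed by more than counting error, with a chi-square per degree of freedom of 6.365 or more, and the common biological coefficient of variation was 8.55%.

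The 54 genes and the other lists were chosen with earlier results of these data known, so no list was tested as a whole. Genes with values are a fixed core of each role, the called genes with the highest and lowest changes, those nearest the threshold and chromosomal neighbours, which gave 37 of the 54, with others, such as UTP8 and IMP4, named to complete a count. Promoter windows were read from the R64 genome. Alternatives were other scalings (RLE factors, library totals alone, protein-coding totals), no filter, DESeq2 1.42.0, limma 3.58.1 on the deposited log2 values, the 6 libraries of 2 strains alone, a replicate block, leaving out each library, and, chosen after seeing the data, leaving out the 3 libraries that stood apart.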

Additional observations from a re-analysis of the deposited data

How the results depend on the processing

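Single genes were followed under the alternatives for 145 gene and comparison values, those that the rule for naming genes gave. Other values in the text were not followed, such as NIP7 in P47T and E49K, RRP9 in E49K and genes outside the 54. Of the 145, 89 were called, and of these 22 lost the call under at least 1 alternative and 0 changed direction. Of the 56 not called, 15 passed under at least 1 alternative and 15, from 11 genes in the point mutants against WT, changed sign, none of them past the threshold there. With library totals alone NOG1 had -0.02 and NOP58 -0.05 in P43L, GAR1 had -0.01, HAS1 -0.08, NOP1 -0.00 and NOP58 -0.02 in P47T, and NSR1 had -0.02 and NUG1 -0.00 in E49K. Without the 3 libraries apart CBF5 had 0.01, ERB1 0.08, NOP1 0.02 and PWP2 0.07 in P43L. Leaving out each library, the P43L log2 fold changes ran from -0.16 to 0.02 for NOP1, -0.01 to 0.14 for NOP56, -0.06 to 0.07 for NOP58, -0.17 to 0.00 for CBF5, -0.15 to 0.07 for both PWP2 and ERB1, and -0.07 to 0.13 for NOG1. HAS1 ran from -0.01 to 0.09 in P47T, and in E49K NOP1 ran from -0.11 to 0.06, CBF5 from -0.12 to 0.06, NSR1 from -0.10 to 0.13 and NUG1 from -0.06 to 0.12, and the cause was not tested. The median log2 fold change of the 54 genes kept its sign under all alternatives run in the 5 comparisons with WT, and between P47T and E49K it was 0.05, but -0.01 with library totals alone. With limma on the deposited log2 values, which are shrunken by construction, the median was 0.22 in rad6Δ, 0.30 in bre1Δ, -0.10 in P43L and 0.08 in P47T against WT, and with library totals alone it was 0.05 in P47T. With library totals alone 5 genes differed between rad6Δ and bre1Δ, and without the 3 libraries apart 5 differed between P47T and E49K, and the cause was not tested. Leaving out each library gave 32 to 39 called genes in rad6Δ, 42 to 47 in bre1Δ, 6 to 17 in P43L, 11 to 19 in P47T and 8 to 15 in E49K against WT, with medians of 0.32 to 0.44, 0.45 to 0.60, -0.23 to -0.16, 0.15 to 0.22 and 0.08 to 0.20. It gave 6 to 14 between rad6Δ and bre1Δ, 43 to 50 for P43L, 16 to 24 for P47T and 14 to 31 for E49K against rad6Δ, 28 to 36 for P43L against P47T, 20 to 33 for P43L against E49K and 1 to 3 for P47T against E49K. Counts over all genes moved as well, in P43L against WT from 97 up and 96 down to 604 up and 505 down. Libraries of different strains with the same replicate number were not more alike than others in their deviations from the strain means. Correlations were -0.42 to 0.285 (median -0.0163) with the same number and -0.361 to 0.512 (median 0.0175) with different numbers. These values cannot tell whether cultures were handled together by number. With the number as a replicate block, 40 genes rose and 0 fell in rad6Δ, 47 and 0 in bre1Δ, 1 and 12 in P43L, 18 and 1 in P47T, and 12 and 1 in E49K. Of all genes, 1357 rose and 1361 fell in rad6Δ under that block, and 1201 and 1188 in bre1Δ. The splits over all genes were 275 and 295 in P43L, 733 and 700 in P47T, and 772 and 846 in E49K. With 3 libraries per strain, changes near the threshold were called or missed by setting. Some were of about 0.2 to 0.3 on the log2 scale. Others were larger, among them those of RRP5 and RPF1 in P47T, of TIF6, NOP8 and NOP16 in P43L, and of PWP1 in E49K. The same holds for MAK16 in bre1Δ and, between the deletions, for GAR1, NOP8 and DBP7.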

Other observations

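PAC and RRPE cores stood together in 289 other genes, 83 of them in the pathway lists above. Of the 288 tested, 138 rose and 35 fell in rad6Δ, 153 rose and 17 fell in bre1Δ, 7 rose and 44 fell in P43L, 86 rose and 10 fell in P47T, and 64 rose and 22 fell in E49K. Of all genes tested, 24.8% rose and 24.8% fell in rad6Δ, and 22.3% rose and 22.1% fell in bre1Δ. The shares up and down were 5.95% and 6.18% in P43L, 14.2% and 13.7% in P47T, and 15.2% and 16.1% in E49K. The 205 tested genes outside the pathway lists moved less, with 79 up and 31 down in rad6Δ and 86 up and 17 down in bre1Δ, and medians of 0.16 and 0.22. Among the 54 genes, the 35 with the longer PAC had a median of 0.42 in rad6Δ, 0.56 in bre1Δ and -0.22 in P43L, and the 19 without it 0.34, 0.48 and -0.18. These values are descriptions, with no test of the motif.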
